A study of Mus musculus with 2 samples.

Results

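The 6 conventional actin genes of the mouse were followed in 2 single-cell libraries, one of embryonic fibroblasts and one of muscle progenitors made from such fibroblasts. The members are Acta1 (skeletal muscle alpha-actin), Actc1 (cardiac alpha-actin), Acta2 (vascular smooth muscle alpha-actin), Actg2 (enteric smooth muscle gamma-actin), Actb (cytoplasmic beta-actin) and Actg1 (cytoplasmic gamma-actin). They were taken by gene symbol, and all 6 were found among the 26100 genes listed in both count matrices. Their values were read in MEF cells and in 4 sets of iMPC cells that were separated by the UMIs of 4 other genes, and the MEF cells that held Acta1 were examined further.

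The iMPC library holds induced myogenic progenitor cells, generated from mouse embryonic fibroblasts by MyoD together with a treatment abbreviated F/R/C and then grown in medium with F/R/C. The study's design text describes the iMPCs as a single stable clone. The MEF library holds fibroblasts in MEF media. Cells of both carry the genotype Tg:Pax7-nGFP/C57BL6;DBA2, so a Pax7 reporter transgene is present on both sides. Each culture is 1 library of the 10x Genomics 3′ assay, in which each captured RNA molecule is counted once through its unique molecular identifier (UMI). With 1 library per group there is no replicate and no test, and intervals below are exact 95% intervals for counting error only.

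Actin monomers assemble into filaments. The 4 muscle isoforms form the thin filaments of contractile cells and the 2 cytoplasmic isoforms form the cortex and stress fibres of nearly every cell. During skeletal muscle differentiation the cytoplasmic isoforms are known to give way to the sarcomeric ones, and embryonic muscle is known to use the cardiac isoform along with the skeletal one. Acta2 is the usual marker of contractile fibroblasts, and many actin genes are controlled by serum response factor (SRF) and its actin-sensing partners (MRTF) through a DNA element called the CArG box.

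The MEF cells (at most 20% mitochondrial UMIs) numbered 6043, with a median of 18929 UMIs per cell and 284 cells under 5000. The iMPC cells (the same mitochondrial limit and a UMI minimum, with 8040 UMIs in the shallowest cell kept) numbered 9349, with a median of 20846 UMIs. Among them, 2180 had a Pax7 UMI and no Myog UMI (Pax7-positive, median 18729.5 UMIs), and 1724 had at least 5 Myog and at most 1 Ckm UMIs (Myog-high, median 23857.5). There were 1037 cells with at least 5 Ckm UMIs (Ckm-high, median 42148 UMIs) and 553 with at least 5 Dcn UMIs (Dcn-high, median 18064). Pax7 marks muscle stem cells, Myog (myogenin) committed myoblasts, Ckm (muscle creatine kinase) maturing muscle cells and Dcn (decorin) connective tissue cells. These cuts are in UMIs, so deeper cells meet them more easily. The Dcn-high set shared 110 cells with the Pax7-positive set and 18 each with the other 2 sets, while 4001 iMPC cells fell in none. Of the MEF cells, 2 had a Pax7 UMI, 0 had a Ckm UMI and 73.7% had a Dcn UMI. Col1a1, a collagen gene of fibroblasts, stood at 2289 CPM (a gene's UMIs scaled to 1000000 UMIs of the set) in MEF and at 508 CPM in Dcn-high cells. There were 16 cell barcodes present in both libraries.

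The start regions of the members are shown first, because the CArG box is a sequence that can be read directly. RefSeq (GRCm38.p6) gave an upstream region for 4 of the 6 genes. The motif searched was CC, 6 bases of A or T, then GG, read on both strands, and a relaxed form let 1 of the 6 middle bases be C or G. Capitals mark every match of either form, each line runs 5′ to 3′ on the gene's own minus strand, and bases that the annotation places in an exon are left out.
Acta1, chr8:123894776-123895025: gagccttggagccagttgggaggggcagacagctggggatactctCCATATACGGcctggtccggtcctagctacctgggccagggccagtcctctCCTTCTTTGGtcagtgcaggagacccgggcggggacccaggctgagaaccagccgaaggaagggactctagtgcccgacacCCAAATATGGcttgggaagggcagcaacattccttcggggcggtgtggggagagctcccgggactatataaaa
Actc1, chr2:114052888-114053125: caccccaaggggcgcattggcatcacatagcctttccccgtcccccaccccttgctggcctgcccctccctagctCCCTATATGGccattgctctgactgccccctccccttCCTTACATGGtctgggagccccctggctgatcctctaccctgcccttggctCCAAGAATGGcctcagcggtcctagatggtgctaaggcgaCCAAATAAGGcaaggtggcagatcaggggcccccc
Actg1, chr11:120348543-120348745: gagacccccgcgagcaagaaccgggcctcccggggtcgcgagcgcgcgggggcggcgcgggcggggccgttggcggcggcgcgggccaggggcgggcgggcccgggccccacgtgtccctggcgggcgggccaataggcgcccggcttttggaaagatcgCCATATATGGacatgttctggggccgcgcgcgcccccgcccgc
The Acta1 region held 1 exact match, CCAAATATGG, beginning 73 bases before the transcript start, and 2 relaxed ones. Actc1 held the exact match CCAAATAAGG, 47 bases before the start, with 3 relaxed matches. Its stretch lies upstream of the RefSeq start but inside the annotated gene interval given below. Actg1 held the exact match CCATATATGG at 90 bases. Acta2, whose region overlaps an annotated exon in 217 of 250 bases and is not printed, held only relaxed matches, CCCTATATGG and CCTTGTTTGG. Both lie in the bases annotated as exon. Among 32851 upstream regions of 250 bases, 1.47% held an exact match and 8.59% a match of the relaxed form. A match describes letters in this window and not a bound site.

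The genes lie apart in the genome, all on the minus strand: Acta1 at chr8:123891769-123894751, Actc1 at chr2:114047282-114053548, Acta2 at chr19:34241090-34255590, Actg2 at chr6:83512905-83536265, Actb at chr5:142903115-142906754 and Actg1 at chr11:120345690-120348542 (GRCm38). Their coding sequences are alike, so it was checked whether a short read near the 3′ end could belong to another gene. None of the 411 windows of 90 bases in the last 500 bases of each main transcript occurred unchanged in a transcript of another gene. Over the whole transcript, 52.8% of the Actg1 windows and 1.64% of the Actb windows did, for Actg1 with annotated pseudogenes among others. Because each UMI stands for 1 captured 3′ end, levels of different isoforms are compared below as UMIs with no correction for transcript length.

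Actin made up 2.01% of all UMIs in MEF, 0.46% in Pax7-positive, 1.11% in Myog-high, 2.30% in Ckm-high and 0.635% in Dcn-high cells. The isoforms behind these sums differed. In MEF, 45.9% of actin UMIs were Actb, 30.4% Acta2 and 21.5% Actg1, with 1.71% Actg2, 0.463% Acta1 and 0.00126% Actc1. In Pax7-positive cells the cytoplasmic pair held 80.9%, and Acta1, Actc1 and Acta2 each held between 5.21% and 6.96%. In Myog-high cells Actc1 led with 39.9% ahead of Acta1 with 33.8%. As a mean over cells, which weights each cell equally, Acta1 held 17.3% in this set, below Actb at 18.8%. In Ckm-high cells Acta1 held 62.2% (62.1 to 62.3) and Actc1 31.5%, which left 3.2% for Acta2 and 3.13% for the cytoplasmic pair.

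**Figure D1:**
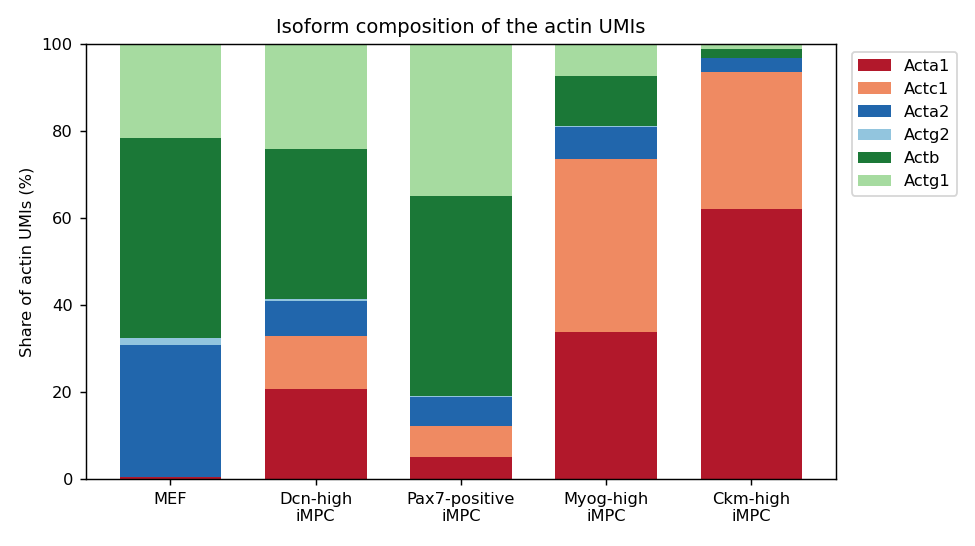
Share of each isoform in the actin UMIs of MEF and of the 4 iMPC sets (vertical axis, percent; 1 bar per set, summed over its cells). Acta1 and Actc1 together grow from 0.464% in MEF to 93.7% in Ckm-high cells, and Acta2 is 30.4% in MEF against at most 7.97% in the iMPC sets.

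Between the libraries, both sarcomeric genes were higher in iMPC cells and the other 4 were lower. Summed over all iMPC cells Acta1 reached 4545 CPM, where MEF had 93.1 CPM (log2 ratio 5.61, interval 5.58 to 5.64). Actc1 reached 3075 CPM against 0.254 CPM, the latter from 30 UMIs in 27 MEF cells (log2 ratio 13.56, interval 13.05 to 14.13). Acta2 was at 611 CPM against 6108 CPM (log2 ratio -3.32) and Actg2 at 14.0 CPM against 344 CPM (-4.62). Actb was at 1534 CPM against 9239 CPM (-2.59), and Actg1 at 1102 CPM against 4336 CPM (-1.98). Deep cells weigh more in these sums: as a mean over cells, Acta1 was at 2752 CPM in iMPC cells with a log2 ratio of 4.90, and the median iMPC cell had 259 CPM. By the sums, 2 members were past 2-fold higher and 4 past 2-fold lower, where 14.8% and 21.5% of 8605 genes with at least 10 CPM on either side were. Without the MEF cells under 5000 UMIs the 6 log2 ratios kept their sides, at 5.62, 13.60, -3.32, -4.61, -2.58 and -1.97 in the same order.

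**Figure D2:**
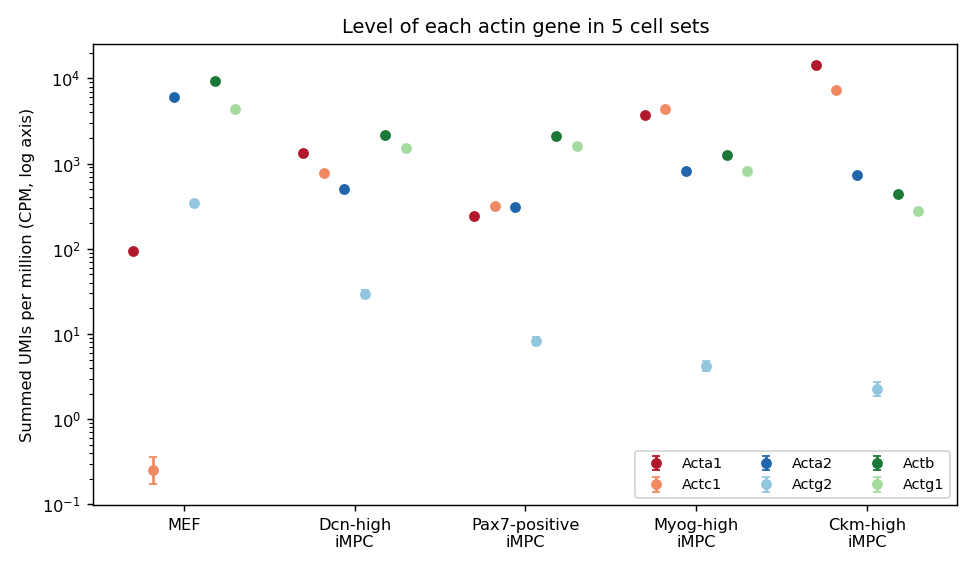
CPM of each actin gene (vertical axis, log scale) in MEF and the 4 iMPC sets, with exact 95% counting intervals that are mostly smaller than the points. Acta1 spans 93.1 CPM in MEF to 14318 CPM in Ckm-high cells, while Actb goes from 9239 to 444 CPM over the same sets.

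The sarcomeric isoforms differed most along the 3 muscle sets. Acta1, the main thin filament actin of adult skeletal muscle, was at 239 CPM in Pax7-positive, 3733 CPM in Myog-high and 14318 CPM in Ckm-high cells. Actc1, its heart counterpart, was at 320.0, 4408 and 7251 CPM. From the Pax7-positive to the Myog-high set the log2 ratio was 3.96 for Acta1 and 3.78 for Actc1. From the Myog-high to the Ckm-high set it was 1.94 for Acta1 and 0.72 (0.71 to 0.73) for Actc1, which stayed under 2-fold. Acta1, Actc1 and Acta2 were past 2-fold higher in the first of these steps, where 7.02% of 7932 genes were higher and 11.5% lower. In the second, Acta1 alone was past 2-fold higher and Actb and Actg1 past 2-fold lower, where 6.53% of 7332 genes were higher and 13.8% lower.

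RNA outside cells bears on the lowest of these values. In 48846 iMPC barcodes of 200 to 600 UMIs, which hold too few UMIs to be cells of this set, Acta1 stood at 6924 CPM and Actc1 at 4733 CPM. Their median of 430 UMIs, counted as free RNA in every cell, would supply 159 of the 239 CPM of Acta1 in Pax7-positive cells and 109 of the 320.0 CPM of Actc1. In Myog-high and Ckm-high cells it would supply at most 3.34% of the summed level of either. For Acta1 in Myog-high cells that is 125 CPM, a larger part of the 403 CPM in the median cell. All free RNA values here rest on the barcodes of 200 to 600 UMIs. In barcodes of 1 to 100 UMIs Acta1 was at 3639 CPM and Actc1 at 2734 CPM. At the same share that profile would supply less of both. Actb was at 2526 CPM in it against 849 CPM in the profile used, so it would supply more of Actb. After thinning each cell to 5000 UMIs, 65.5% of Pax7-positive cells had an Acta1 UMI, and so did 67.8% of the 301 Dcn-high cells without any Myog or Ckm UMI (median 17648 UMIs). The share of cells with an Acta1 UMI was thus no higher in Pax7-positive cells than in these Dcn-high cells. The groups are not separate: 110 Pax7-positive cells were also Dcn-high, and any of them without Ckm stand on both sides. Whether the Dcn-high cells without Myog or Ckm hold Acta1 from free RNA only was not tested. For Actc1 the shares were 67.5% (65.5 to 69.5) and 51.8% (46.0 to 57.6). The free RNA profile was also subtracted, at 1 share for all sets (2.06%, from the median depth of all iMPC cells). The 159 and 109 CPM above use the Pax7-positive set's own 2.30%. After subtraction Acta1 was at 98.5 CPM and Actc1 at 227 CPM in Pax7-positive cells. The log2 ratios to Myog-high cells became 5.22 and 4.28.

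Within the Myog-high set the 2 sarcomeric genes were distributed differently over cells. The median cell had 403 CPM of Acta1 (25th to 75th percentile 200 to 2246, 90th percentile 11452) but 3644 CPM of Actc1 (2055 to 5933, 90th percentile 8450). Actc1 exceeded Acta1 in 82.8% of these cells, although the summed levels were close. The 10% of cells with the most Acta1 held 68.0% of its UMIs. Cells with at least 1000 CPM of Actc1 and under 1000 CPM of Acta1 made up 57.1% (54.8 to 59.5) of the set, and the opposite pattern 0.812%. Both genes reached 1000 CPM in 34.2%. In Ckm-high cells both did so in 98.4%, the median cell had 13895 CPM of Acta1 and 7225 CPM of Actc1, and Acta1 exceeded Actc1 in 72.5% of cells. The bound of 1000 CPM was chosen after the values had been seen.

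**Figure D3:**
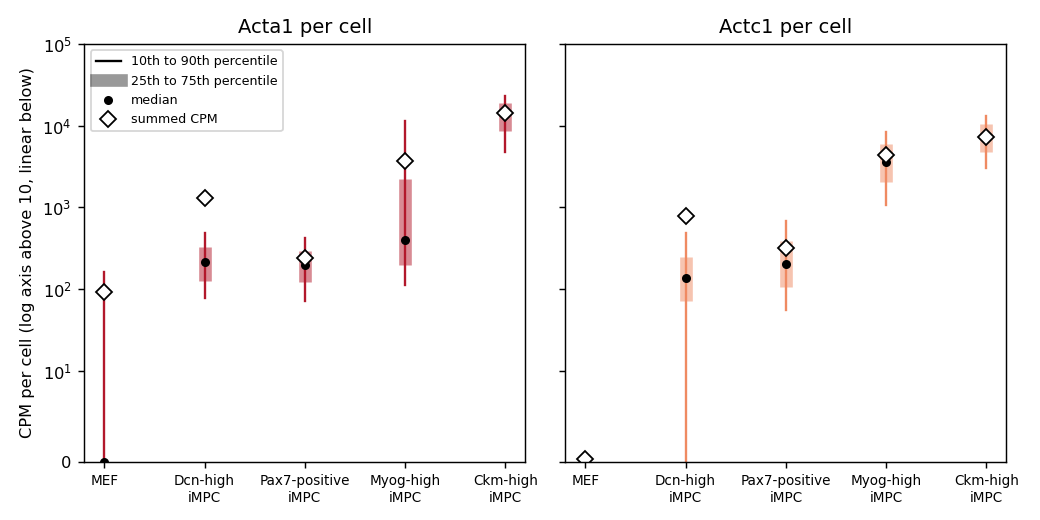
CPM of Acta1 (left) and Actc1 (right) per cell in MEF and the 4 iMPC sets; thin lines run from the 10th to the 90th percentile, thick bars from the 25th to the 75th, black points are medians and open diamonds the summed level of the set. In Myog-high cells the Acta1 median of 403 CPM lies far under the sum of 3733 CPM, whereas the Actc1 median of 3644 CPM lies near its sum of 4408 CPM.

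Ordered by Ckm UMIs, the balance of the sarcomeric pair shifted in steps. Acta1 made up 41.8% of Acta1 and Actc1 UMIs in the 6764 iMPC cells without Ckm, 52.4% in the 1050 cells with 1 Ckm UMI and 57.3% in the 498 cells with 2 to 4. It made up 62.0%, 63.6%, 70.0% and 75.3% in cells with 5 to 9, 10 to 19, 20 to 49 and 50 to 99 UMIs. In the 6 cells with 100 or more it was 73.2%. Acta1 itself went from 867 CPM without Ckm to 8874 CPM at 2 to 4 UMIs and 19640 CPM at 50 to 99. It was at 28051 CPM in the 6 cells of the last bin. Actc1 went from 1206 CPM without Ckm and 3141 CPM with 1 UMI to 6610 CPM at 2 to 4. From that bin on Actc1 lay between 6449 and 10249.6 CPM. Ckm UMIs also follow depth, and the bins' median UMIs per cell went from 18993.5 without Ckm to 56445.5 at 50 to 99 UMIs. The same share over Myog bins, among cells with at most 1 Ckm UMI, had no such order: it lay between 39.5% at 50 or more Myog UMIs and 54.5% at 10 to 19. Actc1 was higher in each Myog bin than in the one before, from 309 CPM at 0 to 6276 CPM at 50 or more.

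**Figure D4:**
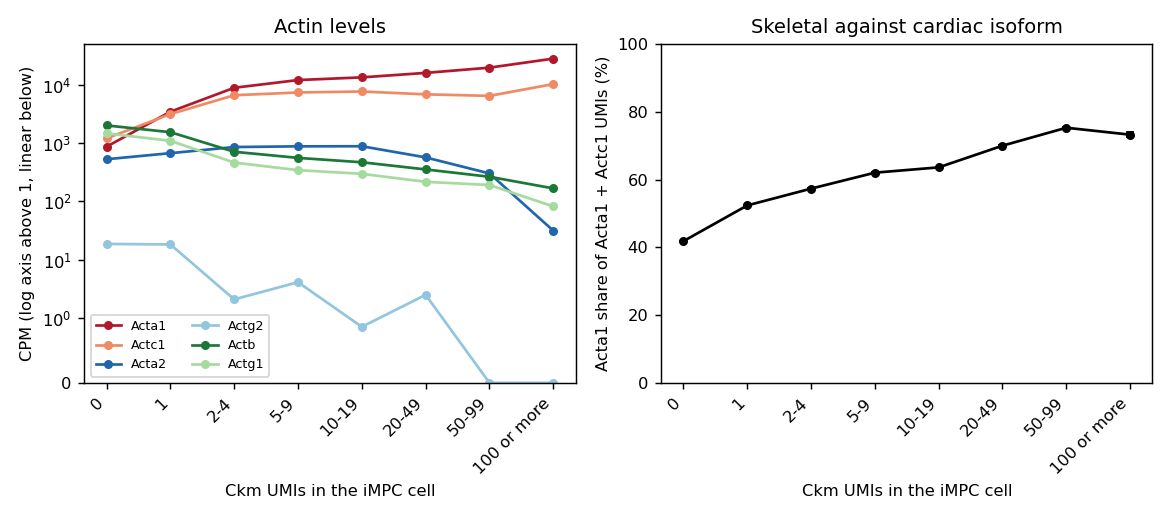
Left, CPM of the 6 actins (log axis above 1) in iMPC cells binned by Ckm UMIs; right, Acta1 as a percent of Acta1 and Actc1 UMIs in the same bins with exact 95% counting intervals. The Acta1 share goes from 41.8% without Ckm to 75.3% at 50 to 99 Ckm UMIs, while Actb goes from 2007 to 264 CPM over the same bins.

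Cycling cells of the Myog-high set showed the sarcomeric genes at lower levels. At 5000 UMIs per cell, Acta1 was at 757 CPM in the 360 cells with a UMI of Mki67, a gene of dividing cells, and at 3434 CPM in the 1364 cells without one. Actc1 was at 2793 and 4748 CPM in the same cells, and Actb at 1711 and 1179 CPM. Among Pax7-positive cells Actc1 was at 326 CPM (307 to 345) with and 293 CPM (281 to 306) without a Mki67 UMI. Acta1 was at 209.9 and 274 CPM there, but free RNA would supply most of its level in this set and 2 of the 2180 cells held 10.7% of its UMIs, so no difference is read from it.

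The smooth muscle isoforms did not move together in the muscle sets. Acta2 was at 308 CPM in Pax7-positive, 815 CPM in Myog-high and 737 CPM in Ckm-high cells. Its log2 ratio was 1.40 from the first to the second and -0.15 from the second to the third, and the latter changed sign with other scalings (0.08 relative to the median gene, 0.11 as a mean over cells). In the median cell, Acta2 was at 110 CPM in Pax7-positive, 657 CPM in Myog-high and 257 CPM in Ckm-high cells, and the 90th percentile reached 2699 CPM in the last. Along the Ckm bins it went from 882 CPM at 10 to 19 UMIs to 301 CPM at 50 to 99. Actg2, the isoform of gut and bladder muscle, was the lowest of the 6: 8.29 CPM in Pax7-positive, 4.22 CPM in Myog-high and 2.28 CPM in Ckm-high cells, with a UMI in at most 5.23% of the cells of each.

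The cytoplasmic isoforms were lower in each later muscle set. Actb was at 2112 CPM in Pax7-positive, 1276 CPM in Myog-high and 444 CPM in Ckm-high cells. Actg1 was at 1608, 814 and 278 CPM. From Pax7-positive to Ckm-high cells the log2 ratio was -2.25 for Actb and -2.53 for Actg1, against 5.90 for Acta1, 4.50 for Actc1 and 1.26 for Acta2. With free RNA subtracted at the 1 share for all sets, it was 7.20 for Acta1 and 5.01 for Actc1. In that comparison 3 members were past 2-fold higher and, of those with at least 10 CPM in either set, 2 lower (Actb and Actg1), where 12.2% of 8115 genes were higher and 30.2% lower, and the median gene stood at -0.46. Actb held 56.8% of the cytoplasmic pair in Pax7-positive cells, 61.0% in Myog-high, 61.5% in Ckm-high and 68.1% in MEF cells. Free RNA at each set's own share, from that set's median depth, would supply at most 2.04% of either gene in any of the 3 muscle sets.

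By summed CPM, Dcn-high iMPC cells, the connective tissue-like set, differed from MEF in every isoform. Acta2 was at 506 CPM against 6108 CPM in MEF (log2 ratio -3.59), Actg2 at 29.4 against 344 CPM (-3.55), Actb at 2189 against 9239 CPM (-2.08) and Actg1 at 1534 against 4336 CPM (-1.50). Acta1 was at 1313 CPM against 93.1 CPM and Actc1 at 776 against 0.254 CPM. Thus 2 members were past 2-fold higher and 4 lower, where 13% of 8525 genes were higher and 12.9% lower. Acta2 made up 7.97% (7.78 to 8.17) of the actin UMIs of the set, and 3.86% as a mean over cells. MEF cells with at least 5 Dcn UMIs, 2179 in number, had 3608 CPM of Acta2, 7317 CPM of Actb and 41.1 CPM of Acta1.

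The sarcomeric UMIs of the Dcn-high set came from few cells. In 28 of the 553 cells (5.06%) sarcomeric actins made up over 50% of actin UMIs, and these held 85.0% of the set's Acta1. The median cell had 214 CPM of Acta1 and 138 CPM of Actc1, where free RNA would supply 165 and 113 CPM. In the 301 cells without Myog or Ckm UMIs, a subset chosen after seeing the values, Acta1 was at 211 CPM and Actc1 at 145 CPM. At the 165 CPM above, free RNA would supply most of that Acta1, so no difference from the 93.1 CPM of MEF is read. In this subset, which can include Pax7-positive cells, the ratio to Pax7-positive cells turned from 2.46 to -0.18 on the log2 scale for Acta1. For Actc1 it turned from 1.28 to -1.14. With the 5% of cells of highest Scrublet doublet score left out, the Dcn-high level of Acta1 was 530 CPM and that of Actc1 262 CPM, and the Actc1 ratio to Pax7-positive cells was -0.29. Of all members, Acta1, Actc1 and Actg2 were past 2-fold higher in Dcn-high than in Pax7-positive cells and none lower, where 11% of 8196 genes were higher and 6.77% lower. Actb (0.05) and Actg1 (-0.07) were close to level in that comparison. Acta2 was also uneven in the set, at 35.8 CPM in the median cell against 506 CPM summed.

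Genes that work with actin were read from lists that do not include the members. Of 17 sarcomeric thin filament partners (troponins, tropomyosins, nebulin, leiomodins and others), 16 had at least 10 CPM in the Myog-high to Pax7-positive comparison. Of these, 15 were past 2-fold higher and none lower, where 7.02% of all genes were higher and 11.5% lower. Their median log2 ratio was 3.48 against -0.14 for all genes. Tnnc2, the calcium sensor of fast fibres, was at 2203 against 168 CPM and Tnnt2, a troponin known from heart and embryonic muscle, at 711 against 35.8 CPM. Tpm3 was the exception at 112 against 189 CPM. From Myog-high to Ckm-high cells 15 of 17 were again past 2-fold higher, where 6.53% of all genes were higher and 13.8% lower. The median was 1.53 against -0.23 for all genes. Lmod2 and Lmod3, which nucleate actin filaments in muscle, were at 160 against 55.5 CPM and 227 against 86.9 CPM. Free RNA in this library also carries muscle transcripts, and its part in the partner genes' lowest levels was not tested.

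Genes of monomer and filament turnover went both ways. From Pax7-positive to Ckm-high cells, 3 of 12 were past 2-fold higher and 5 lower, with a median of 0.18 against -0.46 for all genes, of which 12.2% were higher and 30.2% lower. Cfl2, the muscle cofilin that severs filaments, was at 1166 against 252 CPM, while Cfl1, its counterpart in other cells, was at 269 against 870 CPM. Cap2, a cyclase-associated protein of muscle, was at 186 against 11.2 CPM, while Cap1 was at 8.74 against 35.7 CPM. Between all iMPC cells and MEF, 3 of 12 were higher and 8 lower, with a median of -1.33, where 14.8% of all genes were higher and 21.5% lower. Of 7 actin-related genes with enough UMIs in that comparison, 5 were past 2-fold lower in iMPC cells against that 21.5% of all genes, among them Arpc2 of the Arp2/3 branching complex at 356 against 780 CPM, and the median was -1.05.

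The transcription partners of actin genes were also compared between the libraries. Of 14 SRF and MRTF target genes, 11 were past 2-fold lower in iMPC cells and 2 higher, where 21.5% of all genes were lower and 14.8% higher. Their median was -2.25 against -0.17 for all genes. Cnn1 (calponin) was at 2.46 against 146 CPM, Tagln (transgelin) at 97.9 against 3600 CPM and Myl9, a regulatory myosin light chain, at 43.3 against 684 CPM. Egr1 and Fos, which also answer to other signals, were the 2 higher genes, at 157 against 45.6 CPM and 74.7 against 21.3 CPM. Among SRF and its cofactors, Srf was at 9.76 against 13.2 CPM, Mrtfa at 4.78 against 15.2 CPM and Mrtfb at 15.4 against 27.2 CPM. Myocd, the smooth and heart muscle cofactor, was under 1 CPM in both.

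Likeness was measured as Pearson's r across cells of 1 library on the natural log of 1 plus UMIs per 10000, over genes of at least 50 CPM. The cells share a library and differ in depth, and the values are given as a description. Across 9349 iMPC cells Acta1 was most like Myl1 (0.93), Mylpf (0.93) and Myl4 (0.92), 3 myosin light chains. Actc1 was most like Ttn (titin, 0.86), Mymk (a fusion protein of myoblasts, 0.83) and Myog (0.83), of which Myog was used to form a set. Acta2 reached 0.50 with Tmsb4x, a monomer-binding thymosin, 0.46 with Cnn3 and 0.45 with Cavin2. Actb and Actg1 were most like each other (0.84), followed by Cfl1 and Ptma for both. Acta1 and Actc1 had an r of 0.73 with each other, and Acta1 had -0.71 with Actb and -0.74 with Actg1. Actc1 had 0.45 with Acta2, where Acta1 had 0.12.

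Across 6043 MEF cells the pattern was another one. Acta2 was most like Tagln (0.89), Myl9 (0.83) and Tpm2 (0.73), a tropomyosin. Actg2 was most like Cnn1 (0.56), Myl9 (0.53) and Acta2 (0.53). Actb was most like Tpm4 (0.67), Tagln (0.65) and Cnn2 (0.65), and Actg1 was most like Cnn2 (0.65), Actb (0.64) and Tpm4 (0.62). The highest values for Acta1, 0.34 with Cnn1, 0.32 with Tagln and 0.30 with Hspb1, are weak and rest on sparse counts. With cells thinned to 5000 UMIs, 20 of these 30 named genes were named again.

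Acta1 in MEF was held by few cells. Its 10990 UMIs lay in 1375 of 6043 cells (22.8%, interval 21.7 to 23.8), and at 5000 UMIs per cell 12.9% (12.1 to 13.8) of 5759 cells had one. Free RNA was not estimated for MEF, whose matrix holds only selected barcodes, so these shares count cells with a UMI and have no background share beside them. There were 568 cells with a single Acta1 UMI, 150 with 20 or more and 35 with 50 or more, and the highest cell had 233. The 60 cells (1%) with the most held 35.0% of all Acta1 UMIs, and the 302 cells (5%) with the most held 75.8%. The cells without Acta1 had a median of 17974.5 UMIs and those with 50 or more 25508, so depth moved with the UMI number.

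Most Acta1 UMIs of MEF lay in the cells with the most smooth muscle-type actin. Cells were divided into 4 equal bins by their Acta2 CPM. Acta1 was at 10.3 CPM (9.13 to 11.6) in the lowest bin, 33.6 in the second, 70.9 in the third and 240.5 CPM (235 to 246) in the highest, a log2 ratio of 4.54 (4.37 to 4.72) between the ends. At 5000 UMIs per cell, Acta1 was detected in 4.07%, 8.41%, 13.4% and 25.4% of the cells of these bins. The highest bin held 7553 of the 10990 Acta1 UMIs, but only 372 of the 744 cells with an Acta1 UMI at 5000 UMIs. The median depth of the bins went from 16994 to 20302 UMIs. Without the 1% of cells with the most Acta1 the log2 ratio was 3.74. All of Acta1, Actg2, Actb and Actg1 were past 2-fold higher in the highest Acta2 bin, where 4.79% of 7967 genes were higher and 3.74% lower. Actg2 went from 11.7 to 1024 CPM, Actb from 4250 to 14094 CPM and Actg1 from 2782 to 5667 CPM, whereas Actc1 had 6 UMIs in the lowest and 11 in the highest bin.

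Other ways of dividing the cells gave smaller or larger contrasts. By Tagln, Acta1 went from 6.85 to 256 CPM between the lowest and the highest bin, a log2 ratio of 5.22. By Actb it went from 21.7 to 213 CPM (3.29), and by Actg1 from 23.7 to 194 CPM (3.03). By Col1a1 it went from 78.2 to 111 CPM (0.50), and by UMIs per cell from 86.0 to 109 CPM (0.34). By mitochondrial share it went the other way, from 155 CPM in the bin with the least to 61.5 CPM in that with the most, and the part of RNA quality in this was not tested.

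**Figure D5:**
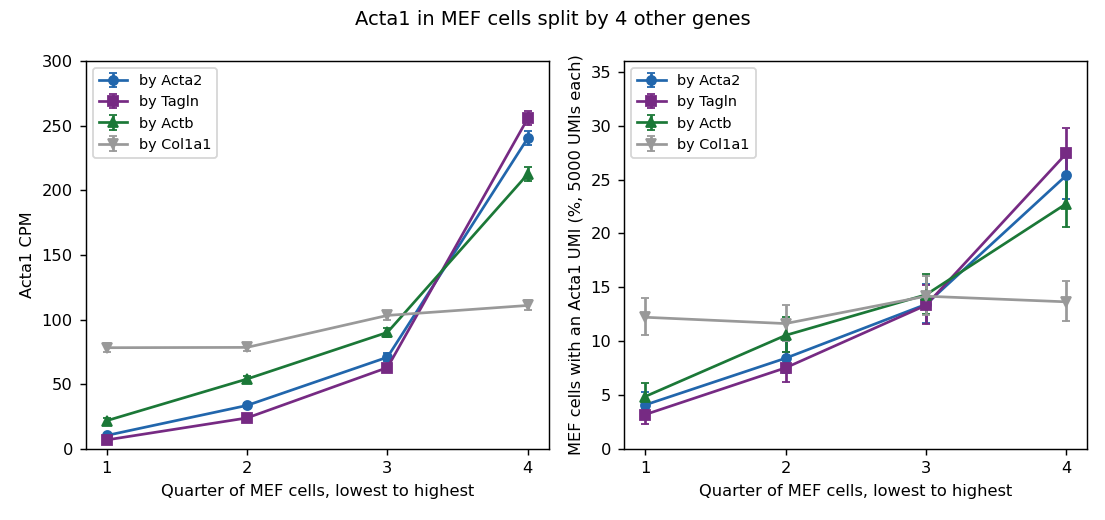
Acta1 in MEF cells divided into 4 equal bins by the CPM of Acta2, Tagln, Actb or Col1a1; left, summed Acta1 CPM, and right, percent of cells with an Acta1 UMI at 5000 UMIs per cell, with exact 95% counting intervals. Acta1 climbs from 10.3 to 240.5 CPM over Acta2 bins and from 6.85 to 256 CPM over Tagln bins, but only from 78.2 to 111 CPM over Col1a1 bins.

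For 12 genes too sparse for equal bins, Acta1 was compared between cells with and without a UMI of the gene, at 5000 UMIs per cell. These genes were chosen after values had been seen, and support nothing beyond their own values. Acta1 was at 391 CPM in the 316 cells with a UMI of Myh11, the smooth muscle myosin heavy chain, and at 70.3 CPM in those without. It was at 234 CPM with and 42.8 CPM without Cnn1, and at 162.5 CPM with and 52.8 CPM without Actg2. With Dcn it was at 52.5 CPM and without Dcn at 125 CPM, and with Lum, another matrix proteoglycan, at 45.8 against 92.9 CPM. With Mki67 it was at 127 CPM and without it at 85.5 CPM. Of the remaining genes, Ankrd1 gave 159 against 73.2 CPM, Ccn2 148 against 75.4, Lmod1 138 against 70.6 and Top2a 108 against 86.2. Acta1 was lower with Cxcl14 (57.5 against 89.5 CPM) and with Il1rl1 (74.8 against 93.2 CPM). Cells split by Cnn1 within the Acta2 bins were not thinned, and those with Cnn1 were deeper. Within the highest Acta2 bin, cells with Cnn1 (median 21365.5 UMIs) had 262 CPM of Acta1. Those without it (median 16757 UMIs) had 142 CPM, and the part of depth in this was not tested. Within the lowest bin the values were 9.42 CPM (4.70 to 16.8) and 10.4 CPM, which do not differ beyond their counting error.

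Turned around, the 744 MEF cells with an Acta1 UMI at 5000 UMIs were set against the 5015 without. Among the genes with the largest ratios were Myh11 (76.6 against 17.3 CPM, log2 ratio 2.15), Cnn1 (335 against 99.5 CPM, 1.75), Sprr2k (402 against 126 CPM, 1.67) and Actg2 (774 against 257 CPM, 1.59). Ptprz1, a receptor phosphatase, was at 1.21. Ankrd1, a stretch-responsive gene of muscle and a target of YAP, was at 1.20, the heat shock protein Hspb1 and the integrin Itga5 at 1.09 and the matrix protein Ccn2 at 1.08. Acta2 was at 10556 against 5163 CPM (1.03) and Actb at 12671 against 8721 CPM (0.54). Apart from Acta1 itself, Acta2 and Actg2 were past 2-fold higher and no member lower, where 0.363% of 7719 genes were higher and 0.609% lower.

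The gene lists were counted in the same comparisons. Between the end bins of Acta2, 11 of 14 SRF and MRTF targets were past 2-fold higher in the highest bin and none lower. Their median was 1.97 against -0.04 for all genes. All 7 smooth muscle genes with enough UMIs were past 2-fold higher, with a median of 4.36. Of all genes, 4.79% were higher and 3.74% lower. Tagln and Cnn1 stand in both lists. Between cells with and without Acta1, 5 of 14 targets were past 2-fold higher (median 0.56 against -0.09 for all genes). These were Cnn1, Ccn2, Tagln, Fhl1 and Myl9. Of the smooth muscle genes, 4 of 6 were past 2-fold higher (median 1.11). Of all genes, 0.363% were higher and 0.609% lower. Srf was not past 2-fold in either comparison. The 3 cycling markers were past 2-fold higher in the highest Acta2 bin, with Mki67 at 23.1 against 2.38 CPM, and their part in the difference between the bins was not tested.

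Markers of skeletal and heart muscle were low in the Acta1-holding MEF cells. In the 295 cells with at least 10 Acta1 UMIs, the 12 skeletal muscle markers summed to 13.2 CPM (10.7 to 16.1), and Pax7, Myf5, Myog, Mymk, Myh3 and Ckm had no UMI. In the 4668 cells without Acta1 they summed to 5.97 CPM (5.47 to 6.51), a lower level beyond counting error, and their part in the Acta1 values was not tested. The 6 cardiac markers summed to 7.34 and 6.20 CPM, with Myh6 and Nkx2-5 at 0 in both. The 5 smooth muscle and pericyte markers summed to 341 CPM against 122 CPM, with none of them at 0, but they did not move together. Between cells with and without an Acta1 UMI at 5000 UMIs, 1 of the 4 with at least 10 CPM, Myh11, was past 2-fold higher (median 0.71). Of all genes, 0.363% were. The pericyte gene Notch3 was at 5.91 against 11.7 CPM. The 8 fibroblast markers summed to 6177 CPM against 6503 CPM. Endothelial, immune and epithelial markers summed to at most 3.35 CPM in either group, and neuron and glia markers to 38.9 and 25.1 CPM. Actc1, which moved with Acta1 in iMPC cells, was found in 27 MEF cells, with at most 3 UMIs in a cell. Of these, 10 held Acta1 (37.0%, against 22.8% of all MEF cells). Their depth was not compared, and with so few cells no co-occurrence is read from this share. Sarcomeric actins exceeded 50% of actin UMIs in 0 of 6043 MEF cells.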

How the data were processed

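Both libraries were made with the 10x Genomics 3′ kit, version 3, per the labels' protocols. The deposited values are raw UMI counts per gene and barcode, with no normalisation by the authors. Cell Ranger 4.0, Seurat 3.2.3 and the build GRCm38.p6 are named in the submitters' processing notes. The iMPC matrix lists 6794880 barcodes and the MEF matrix 6113. How the latter were selected is not given in the sources used here. MEF lists 26124 genes and iMPC 26100; those listed for MEF only, with 0.209% of its UMIs, were dropped. The MEF library's treatment protocol field repeats the iMPC text, and its own treatment characteristic (MEF media) was used.

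Cells were kept at no more than 20% mitochondrial UMIs and, in iMPC, above a UMI minimum (8040 in the shallowest cell kept), summed per set and expressed as CPM. Doublets were kept, and the 5% of cells with the highest Scrublet score in each library were left out as an alternative. Intervals are exact Poisson for CPM, exact binomial (Clopper-Pearson) for shares and exact conditional for ratios, at 95%. A count of 0 was set to 3 in a ratio. To compare shares of cells, each cell was thinned to 5000 UMIs. For counts past 2-fold, genes with at least 10 CPM in either set were used. Named genes were the members, the 3 genes most like each member per library, the 10 largest ratios (at least 50 CPM) of MEF cells with Acta1 to those without, and up to 4 members of each list. One gene that this rule names is not reported here. Others were chosen after their values were seen, as were all members of lists named beyond that. The members, the cell sets and the lists were chosen with earlier results of these data known. Free RNA was profiled in barcodes of 200 to 600 UMIs. Analysis used Python 3.11.15, numpy 2.4.6, scipy 1.17.1, pandas 2.3.3 and scanpy 1.11.5, and was tested on simulated data. Alternatives changed the UMI, mitochondrial and doublet limits, the set thresholds, overlap of sets, free RNA, averaging, scaling and thinning.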

Additional observations from a re-analysis of the deposited data

Results flagged for a closer look

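Actin transcripts were abundant in iMPC barcodes that the comparisons do not use as cells. In barcodes of 1 to 100 UMIs, Acta1 stood at 3639 CPM and Actc1 at 2734 CPM, and in those of 200 to 600 UMIs at 6924 and 4733 CPM, where 3 counts would be 0.342 and 0.141 CPM. These barcodes lie outside the cell sets, and the signal was set against the limit that a count of 0 allows, with no control barcodes of the same kind used.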

How the results depend on the processing

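No paired analysis was possible because each group had 1 library. Of the 36 log2 ratios of actin genes between sets, 27 were past 2-fold, counting Actg2 from Pax7-positive to Ckm-high cells, which is under 10 CPM in both. Over 225 values of these under the alternatives, 4 fell under 2-fold and 3 changed sign, with Actc1 at -1.14 past 2-fold lower. All were ratios of Dcn-high to Pax7-positive cells. Actc1 there went from 1.28 to 0.14 in cells of exactly 1 set, 0.46 as a mean over cells, -0.29 without the highest Scrublet scores and -1.14 in cells without Myog and Ckm, a restriction added after seeing the data, and Acta1 went from 2.46 to -0.18 in the latter. The Acta1 share of actin UMIs in Ckm-high cells was 61.0% at up to 10% mitochondrial UMIs, 62.9% without the highest Scrublet scores, 64.3% at doubled thresholds, 62.3% in cells of exactly 1 set, 62.3% after subtracting free RNA and 58.5% as a mean over cells. The Actc1 share in Myog-high cells was 39.7% at 15000 UMIs or more, 40.6% without the highest Scrublet scores, 41.1% at doubled thresholds and 42.7% as a mean over cells. The Acta2 share in Dcn-high cells was 8.48% at 15000 UMIs or more, 9.42% without the highest Scrublet scores, 10.1% in cells of 1 set, 8.18% after subtracting free RNA, 3.86% as a mean over cells and 10.6% without Myog and Ckm. In MEF it was 30.5% at 10% mitochondrial UMIs, 30.4% without the highest Scrublet scores, 22.1% as a mean over cells and 30.5% at 5000 UMIs or more (added after seeing the data). The share of MEF cells with Acta1 was 8.40% at 2000 UMIs, 22.8% unthinned and 6.63% for at least 2 UMIs. The Acta2-quarter ratio of Acta1 was 3.74 without the 1% of cells with the most Acta1. With genes of 10 CPM admitted, 5 of the 10 genes with the largest ratios in Acta1-holding MEF cells were among the 10 again. The cause of these differences was not tested. Among 9 values of ratios under 2-fold that went past it, the largest was Actg2 from Myog-high to Ckm-high cells, -2.93 without the highest Scrublet scores. The median gene stood at -0.17 between the libraries and at -0.46 from Pax7-positive to Ckm-high cells. Depth limits the ratios of Actg2 in the muscle sets, which rest on 111 to 365 UMIs.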

Other observations

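Among iMPC cells in none of the 4 sets, 4001 in number, actin was also held unevenly. Acta1 was at 2023 CPM summed and 226 CPM in the median cell, and Actc1 at 1659 and 300.2 CPM. In 12.8% of these cells sarcomeric actins made up over 50% of actin UMIs, and these cells held 91.0% of the Acta1. Actg2 was at 26.5 CPM in them, above its 8.29 CPM in Pax7-positive cells, with a UMI in 7.35% of cells. Counted separately, and with no split from the cells above, 8.92% had at least 1000 CPM of Actc1 and less than that of Acta1, against 0.825% with the opposite pattern.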
